A study of Mus musculus with 6 samples.

Results

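The fibrillar collagen genes *Col1a1*, *Col1a2*, *Col3a1*, *Col5a1*, *Col5a2*, *Col5a3* and *Col11a1*, which encode chains of collagens I, III, V and XI, were taken by symbol from the expression table, where they were 7 of 19446 genes. All 7 passed the filter on low reads, which kept the 15948 genes that had 10 or more reads in 2 or more libraries. The table compared cardiac fibroblasts (CFs) cultured from wild-type (WT) mice with CFs from CharmeKO mice, with 3 libraries per genotype. *Charme* is a long non-coding RNA of heart and skeletal muscle. The CharmeKO allele carries a polyadenylation signal inserted into the *Charme* locus, and both genotypes were C57BL/6J mice of 5 weeks. The cells were explant outgrowths of atrial tissue pooled from littermates, expanded on fibronectin-coated plates in IMDM with 20% FBS. The libraries therefore come from cells grown in culture. Libraries of freshly isolated CFs were not analysed here.

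Fibrillar collagens are the rope-like collagens of the extracellular matrix. Each molecule is a triple helix of 3 chains whose strands repeat the unit Gly-X-Y, with glycine at the start of each unit, and trimmed molecules assemble side by side into cross-linked fibrils. Collagen I, the most abundant collagen of the heart, joins chains from *Col1a1* and *Col1a2*, and collagen III is made of *Col3a1* chains alone. Collagen V, from *Col5a1*, *Col5a2* and, in some molecules, *Col5a3*, lies inside collagen I fibrils and limits their diameter. *Col11a1* encodes a closely related chain that is best known from cartilage and can replace a collagen V chain.

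The repeat that defines the family is visible in the coding sequence. In each gene the longest uninterrupted run of codons with GGN, a glycine codon, at the start of every 3 codons held 337 to 344 triplets. The first 72 bases of that run are shown for each gene, 5′ to 3′ on the coding strand, from GENCODE M21 transcripts (GRCm38), with the glycine codons that set the repeat in capitals:
Col1a1: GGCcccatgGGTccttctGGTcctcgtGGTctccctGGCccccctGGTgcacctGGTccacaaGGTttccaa
Col1a2: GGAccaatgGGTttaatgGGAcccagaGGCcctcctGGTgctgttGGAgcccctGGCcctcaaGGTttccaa
Col3a1: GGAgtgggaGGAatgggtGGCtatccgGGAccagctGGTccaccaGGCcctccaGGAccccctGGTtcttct
Col5a2: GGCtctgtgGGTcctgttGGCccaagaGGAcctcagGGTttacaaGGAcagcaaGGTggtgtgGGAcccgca
Col5a1: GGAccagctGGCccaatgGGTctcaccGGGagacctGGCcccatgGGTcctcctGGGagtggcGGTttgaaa
Col5a3: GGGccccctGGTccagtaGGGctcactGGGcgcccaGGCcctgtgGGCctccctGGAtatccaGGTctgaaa
Col11a1: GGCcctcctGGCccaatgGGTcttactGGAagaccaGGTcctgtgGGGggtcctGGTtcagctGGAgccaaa

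The *Col1a1* stretch lay in coding exons 6 to 8 of 51 (chr11:94939451-94939921, plus strand) and the *Col1a2* stretch in exons 6 to 8 of 52 (chr6:4512406-4515498, plus strand). For *Col3a1* it was exons 5 to 6 of 51 (chr1:45323762-45325395, plus strand), and for *Col5a2* exons 8 to 10 of 54 (chr1:45422422-45426996, minus strand). The 3 remaining stretches all lay in exons 14 to 15, at chr2:27964080-27965277 on the plus strand for *Col5a1*, chr9:20801095-20801260 on the minus strand for *Col5a3*, and chr3:114105402-114108307 on the plus strand for *Col11a1*. These spans include the introns between the exons. Over the whole runs, aligned without gaps, *Col5a1* and *Col11a1* shared 73.3% of bases, *Col1a1* and *Col1a2* 66.5%, and *Col5a1* and *Col5a3* 65.7%. The partners *Col5a1* and *Col5a2*, whose chains meet in collagen V, shared only 49.9%. The sequences thus formed 2 groups, with *Col5a1*, *Col5a3* and *Col11a1* in one, where the pairs shared 65.3% to 73.3%, and *Col1a1*, *Col1a2*, *Col3a1* and *Col5a2* in the other, where they shared 59.5% to 66.5%. Between the groups no pair shared more than 51.9%. No 2 of the longest transcripts had an identical stretch of more than 32 bases.

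The 6 libraries held 38330019 to 46797446 reads. The locus added for *Charme*, taken to be the 1 table entry without an Ensembl identifier, had 5, 15 and 11 reads in WT 1 to 3 and 0, 6 and 3 in CharmeKO 1 to 3. At these levels, close to the floor of 3 reads, the knocked-out gene was a weak check of the genotype labels. The 9 fibroblast markers, such as *Pdgfra* and *Dcn*, were all in the table, with summed levels of 179555 to 275179 normalised reads in WT and 181850 to 276281 in CharmeKO. *Vim*, at 60556 to 206040, was the largest part of this sum in every library except CharmeKO 2, where *Dcn* was, at 98888. The sum therefore says little of the single markers, of which 4 had a positive and 5 a negative fold change. The summed haematopoietic markers ranged from 1876 to 8125 in WT and from 1020.2 to 17521 in CharmeKO, with *Ptprc* and *Itgam* at 0 in at least 1 library. The endothelial sum was 126 to 284 and 46.1 to 352, with *Cdh5* and *Erg* at 0 in at least 1 library. Of the 10 cardiomyocyte markers, 6 were not among the rows of the table.

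The 7 genes differed widely in level, and their order was that of the means in 4 of 6 libraries. Levels were compared as normalised reads per kilobase of the longest annotated transcript, because a longer transcript yields more reads. *Col1a1* led with a mean of 105873 ± 25625 (SD over all 6 libraries), followed by *Col1a2* with 88198 ± 34977 and *Col3a1* with 51970 ± 24298. These 3 major chains overlapped in range with their neighbours in the order, although *Col1a2* lay above *Col3a1* in 6 of 6 libraries and *Col1a1* above *Col1a2* in 5 of 6. The collagen V chains came next, *Col5a2* with 24485 ± 6599 and *Col5a1* with 7763 ± 2145. *Col5a2* was lower than *Col3a1* in 5 of 6 libraries and 3.15 times the level of *Col5a1*, with no overlap. The minor chains were far lower, *Col11a1* at 601 ± 323 and *Col5a3* at 138 ± 34.7, and neither range overlapped a neighbour. When all annotated exons of a gene were used as its length, the order of the means stayed, but *Col1a1* no longer overlapped *Col1a2*, while *Col5a2* and *Col5a1*, and *Col11a1* and *Col5a3*, did. With that length *Col1a2* lay above *Col3a1* in only 4 of 6 libraries, and *Col1a1* above *Col1a2* in 6 of 6.

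**Figure D1:**
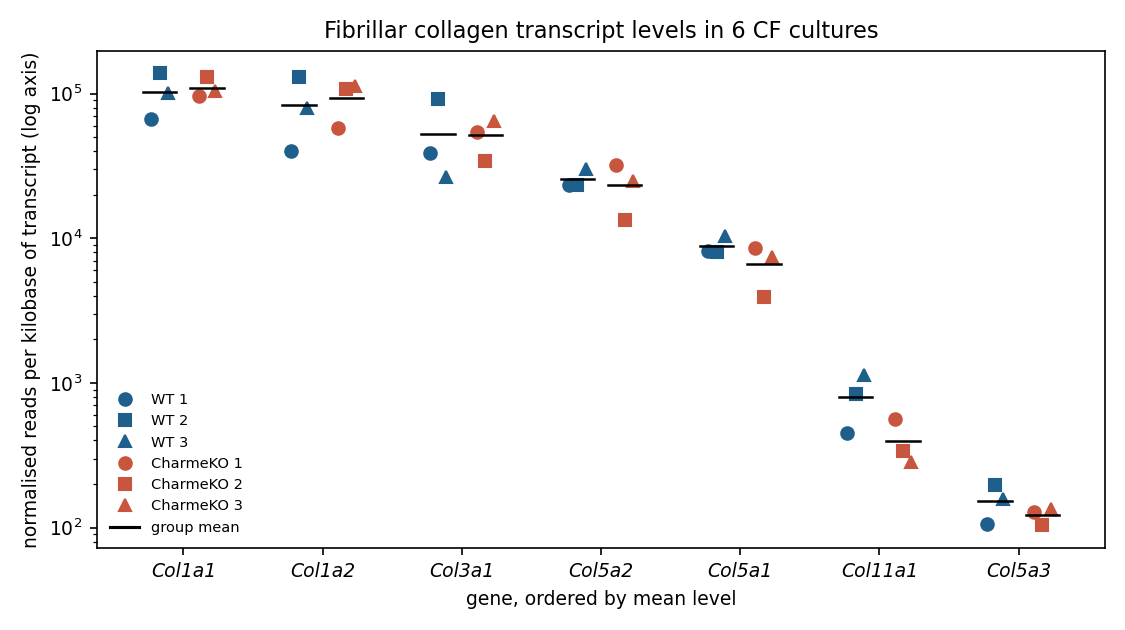
Level of each fibrillar collagen gene in each CF library, in normalised reads per kilobase of the longest transcript on a log axis. Blue symbols are WT and red CharmeKO, the shape gives the replicate number and black bars are group means over 3 libraries. The genes run from *Col1a1*, with a mean of 105873, down to *Col5a3*, with 138, and the WT and CharmeKO symbols overlap for every gene.

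Together the 7 genes took 2.48%, 5.53% and 3.47% of all reads in WT 1 to 3, and 3.43%, 4.25% and 4.44% in CharmeKO 1 to 3. The lowest and the highest share were both WT libraries. The means were 3.83 ± 1.56% and 4.04 ± 0.539% (SD, n = 3), a difference of 0.213 percentage points that lay within the spread of WT alone. *Col1a1* was the gene with the most reads in all 3 CharmeKO libraries and the second in all 3 WT libraries.

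No fibrillar collagen gene passed the test between genotypes. Each gene was tested with limma on log2(normalised value + 1) and adjusted over all 15948 genes, and 0 of 7 had an adjusted p under 0.05. The same was true of 0% of all genes. With the replicate number as a block, limma likewise called 0 of 7, and 0% of all genes. DESeq2 on the recovered reads called 0 of the 7 against 0.0502% of all genes, and with the replicate block 0 of the 7 against 0.401% (64 genes). At an unadjusted limma p under 0.05, 1 of 7 was found, *Col11a1*, against 0.897% of all genes. With the replicate block, 0 of 7 were found at that limit, against 857 of the 15948 genes. In every one of the 7 the WT and CharmeKO values overlapped, whereas 4.11% of all genes had no overlap. The log2 fold changes, CharmeKO minus WT, had a median of -0.22 over the 7 genes, beside 0.0022 over all genes tested. This median rested on single libraries, since it was 0.034 without CharmeKO 2, -0.081 without WT 2 and -0.32 without CharmeKO 1. In RNA from whole cultures, fewer cells of a type and less RNA per cell cannot be told apart.

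**Figure D2:**
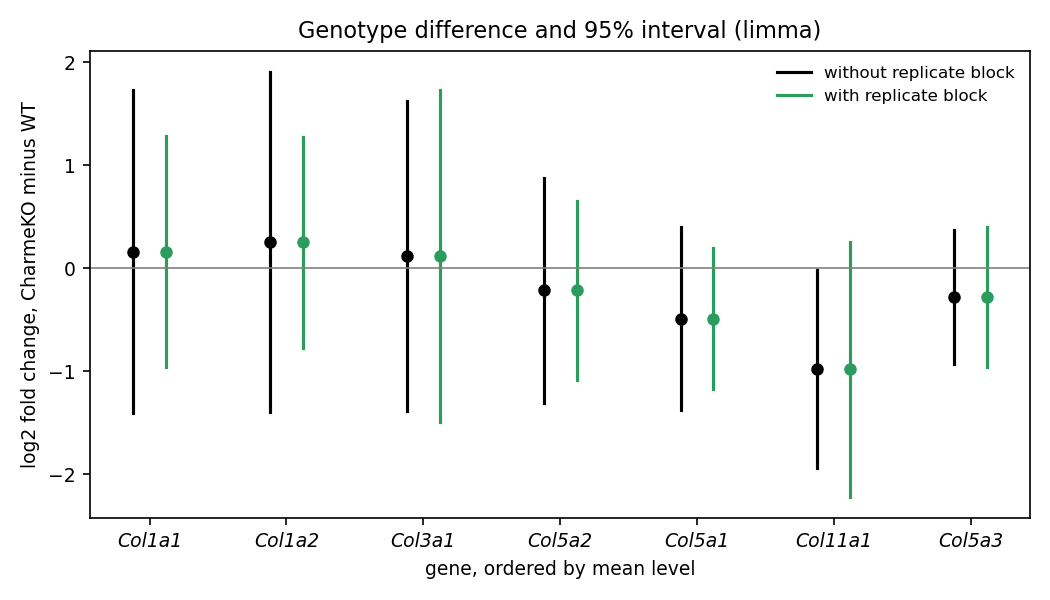
Log2 fold change, CharmeKO minus WT, of each fibrillar collagen gene on the vertical axis with its 95% interval from limma, without (black) and with (green) the replicate number as a block. Every interval includes 0 except that of *Col11a1* without the block, which runs from -1.94 to -0.017.

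*Col1a1* (ENSMUSG00000001506, chromosome 11, 94936224 to 94953042, plus strand), the gene of the principal collagen I chain, had 394739, 818672 and 598199 normalised reads in WT 1 to 3, and 570333, 770463 and 614566 in CharmeKO 1 to 3. WT held both the lowest and the highest library, and the CharmeKO libraries lay between them. The log2 fold change was 0.16 (SE 0.655), and without the replicate block the 95% interval from -1.41 to 1.73 left room for a change of over 2-fold either way. With the block the SE was 0.421 and the interval -0.96 to 1.28, whose lower end fell just short of a 2-fold decrease.

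*Col1a2* (chromosome 6, 4504814 to 4541544, plus strand), which encodes the second collagen I chain, had 215275, 701122 and 423807 normalised reads in WT and 310091, 579628 and 600162 in CharmeKO. As for *Col1a1*, WT 1 was lowest and WT 2 highest. The fitted difference, CharmeKO minus WT, was 0.25 log2 units (SE 0.690, 95% interval -1.40 to 1.90). With the replicate block the SE was 0.384 and the interval -0.77 to 1.28. Across the 6 libraries the log2 values of the collagen I pair had a Pearson correlation of 0.920, given as a description. The replicate number accounted for 79.2% of the sum of squares of *Col1a1* and 85.8% of that of *Col1a2*, while genotype accounted for 5.55% and 4.45%. The replicate number has more levels than genotype and takes a larger share by chance, so these shares are not directly comparable.

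*Col3a1* (chromosome 1, 45311538 to 45349706, plus strand), the only chain of collagen III, had 215212, 514618 and 148124 normalised reads in WT, and 303565, 191059 and 362381 in CharmeKO. The WT libraries spanned 3.47-fold and enclosed all CharmeKO values. The log2 fold change was 0.12 (SE 0.627, 95% interval -1.38 to 1.62), and it turned to -0.038 with edgeR and -0.043 with DESeq2. The replicate number accounted for 9.12% of its sum of squares, and its correlation with *Col1a1* was 0.361. Another annotated gene, *Gm47302*, overlaps *Col3a1* on the same strand.

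*Col5a1* (chromosome 2, 27886425 to 28039514, plus strand) encodes the chain found in nearly all collagen V. It had 68891, 67605 and 87824 normalised reads in WT, and 71931, 32935 and 62372 in CharmeKO. CharmeKO 2 stood lowest, and CharmeKO 1 lay within the WT range. The log2 fold change was -0.49 (SE 0.370, 95% interval -1.38 to 0.40).

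*Col5a2* (chromosome 1, 45374321 to 45503282, minus strand), the second collagen V chain, had 154410, 154593 and 200501 normalised reads in WT, and 211784, 87986 and 164011 in CharmeKO. Here CharmeKO held both extremes. The log2 fold change was -0.22 (SE 0.456, 95% interval -1.31 to 0.88). *Col5a2* followed *Col5a1* across the 6 libraries (r = 0.943) and not its neighbour on the chromosome, *Col3a1* (r = 0.133), from which it is separated by 24.6 kb. Within WT *Col5a1* and *Col5a2* each spanned 1.30-fold, less than the 2.07-fold of *Col1a1* and the 3.26-fold of *Col1a2*. Within CharmeKO the order was the other way, at 2.18-fold for *Col5a1* and 2.41-fold for *Col5a2* beside 1.35-fold and 1.94-fold. *Col5a3* did not share this pattern, at 1.85-fold in WT and 1.30-fold in CharmeKO. These differences in spread were not tested.

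*Col5a3* (chromosome 9, 20770050 to 20815067, minus strand), which encodes a rarer collagen V chain, had 649, 1200.1 and 958 normalised reads in WT and 788, 635 and 827 in CharmeKO. The groups overlapped, with the lowest value in CharmeKO 2. The log2 fold change was -0.28 (SE 0.271, 95% interval -0.93 to 0.37).

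*Col11a1* (chromosome 3, 114030540 to 114220718, plus strand), the gene of the first collagen XI chain, showed the largest difference of the 7. It had 3472, 6384 and 8640.5 normalised reads in WT, and 4347, 2614 and 2193 in CharmeKO. The groups overlapped through 1 library of each genotype, WT 1 and CharmeKO 1, and the other WT values lay above every CharmeKO value. The means were 6166 ± 2591 and 3051 ± 1142 (SD, n = 3), and the fitted log2 fold change was -0.98 (SE 0.402, 95% interval -1.94 to -0.017). The limma adjusted p was 0.9999, and with the replicate block, where the interval widened to -2.22 to 0.26, it was 0.7997. The fold change ranged from -1.35 to -0.69 when each library was left out in turn, the weakest value without WT 3. The summed chondrocyte and valve markers, of which 5 of 10 were in the table and *Acan* was at 0 in at least 1 library, ranged from 628 to 984 in WT and from 669 to 1184 in CharmeKO. Most of this sum was *Sox9*, at 611 to 931 in WT and 651 to 1157 in CharmeKO. *Acan* had 31.5, 0 and 39.5 in WT and 7.69, 0.983 and 2.61 in CharmeKO. Of the 5 markers, 3 had a positive and 2 a negative fold change.

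The difference between genotypes changed sign from pair to pair. Each WT library was set against the CharmeKO library of the same number. Across all genes, same-numbered libraries deviated together in pairs 1 and 2 (r = 0.762 and 0.514). Pair 3 (r = 0.217) was no closer than WT 2 with CharmeKO 3 (r = 0.222). In pair 1, all 7 genes were higher in CharmeKO, by 0.062 to 0.53 on the log2 scale. In pair 2, all 7 were lower, from -1.43 for *Col3a1* to -0.088 for *Col1a1*. Of all genes tested, 20.1% were higher in pair 1 and lower in pair 2. In pair 3 the genes separated, with *Col1a1*, *Col1a2* and *Col3a1* higher, by 0.039, 0.50 and 1.29, and *Col5a1*, *Col5a2*, *Col5a3* and *Col11a1* lower, from -1.98 for *Col11a1* to -0.21 for *Col5a3*. So 0 of 7 moved in 1 direction in all 3 pairs, against 30.4% of all genes. The genes share their libraries and are not separate measurements of this pattern.

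**Figure D3:**
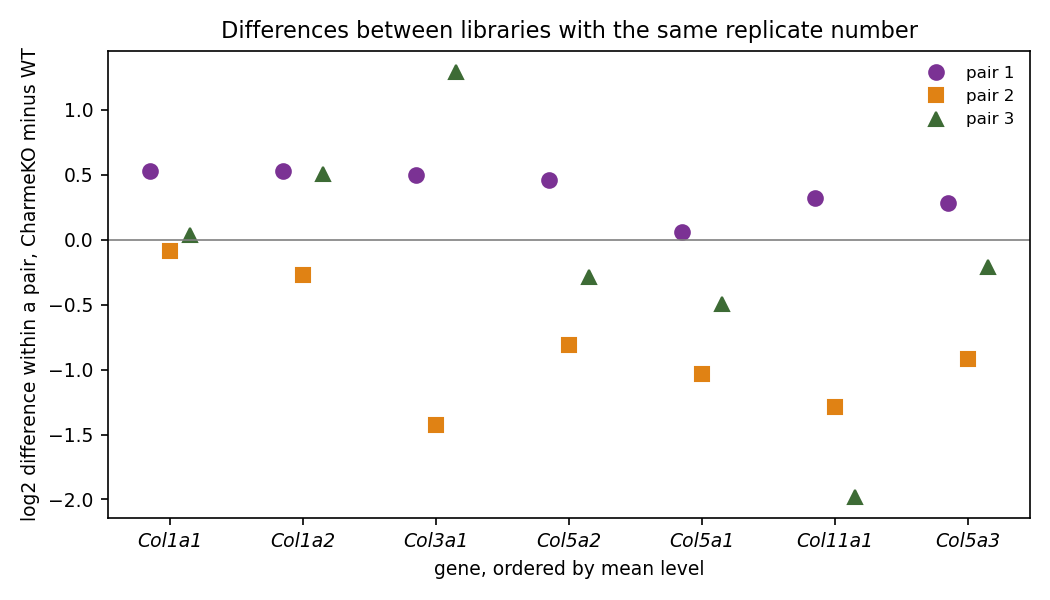
Log2 difference within each pair of same-numbered libraries, CharmeKO minus WT, for each gene. Pair 1 (circles) lies above 0 for all 7 genes, from 0.062 to 0.53, pair 2 (squares) lies below 0 for all 7, and pair 3 (triangles) is above 0 for the 3 major chains and below 0 for the others.

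Markers of contractile cells moved with some of these values. The summed level of 14 smooth muscle and pericyte markers, among them *Acta2* and *Myh11*, was 170220, 59740 and 267087 normalised reads in WT 1 to 3, and 157705, 34215 and 59397 in CharmeKO 1 to 3. Its range was 59740 to 267087 in WT and 34215 to 157705 in CharmeKO, and 13 of the 14 markers had a negative fold change, as did 7914 of all 15948 genes. In WT 3 most of this sum was *Acta2* and *Tagln*, at 155862 and 63007. Other markers of the list went otherwise, with *Rgs5*, *Kcnj8*, *Abcc9* and *Notch3* highest in WT 2. *Pdgfrb* was highest in WT 1 and lowest in WT 3, at 17317. The sum was highest in WT 3 and lowest in CharmeKO 2, and *Col5a1* was highest and lowest in the same libraries. For *Col11a1* WT 3 was also highest, but CharmeKO 3 lowest, and for *Col5a2* CharmeKO 1 was highest. Of these markers, *Abcc9* was at 0 in at least 1 library. Their part in the collagen values was not tested.

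The balance between chains was compared as the log2 ratio of 2 genes within a library, which no size factor can alter. The 6 ratios were each tested with an exact two-sided permutation test over the 6 libraries, for which the smallest possible p is 0.1, and adjusted over the 6. Sign flips of the 3 pairs cannot give a p below 0.25. No ratio could therefore pass 0.05, and the ratios are given with the libraries that show each direction.

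The ratio of *Col5a1* to *Col5a2* was the steadiest in WT, at -1.16, -1.19 and -1.19 in WT 1 to 3. In CharmeKO it was -1.56, -1.42 and -1.39, so that every CharmeKO library lay below every WT library. The means were -1.18 ± 0.016 and -1.46 ± 0.088 (SD, n = 3), a difference of -0.27, with an exact permutation p of 0.1, the smallest possible, and 0.6 after adjustment over the 6 ratios. The ratio was 0.827 times as high in CharmeKO, and it was lower in 3 of 3 pairs, by -0.39, -0.22 and -0.20. Leaving out each library in turn gave differences of -0.30 to -0.22. Of all other genes, 1.08% had a ratio to *Col5a2* with no overlap between the genotypes, and 3.26% a ratio that was lower in CharmeKO in all 3 pairs. This difference was larger than the SD of the ratio in either genotype, although the levels of neither gene differed beyond their spread. *Col5a1* followed *Col5a2* closely (r = 0.943), and the shares over all other genes were not limited to genes that did so. With the smallest possible p at 0.1, the test cannot decide whether the ratio differs.

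The ratio of *Col1a1* to *Col1a2*, the balance of the collagen I chains, was 0.87, 0.22 and 0.50 in WT, and 0.88, 0.41 and 0.034 in CharmeKO. Both genotypes covered almost the same range. The difference was -0.091 (exact permutation p = 0.8, adjusted 0.8), and per kilobase *Col1a1* had 1.26 times the level of *Col1a2* over all libraries, from 0.923 to 1.66 times. With all annotated exons as the length it was 2.65 times, from 1.94 to 3.48 times.

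The ratio of *Col1a1* to *Col3a1*, which sets collagen I against collagen III, was 0.88, 0.67 and 2.01 in WT, and 0.91, 2.01 and 0.76 in CharmeKO. In each genotype 1 library stood above the other two, WT 3 and CharmeKO 2. The difference was 0.042 (exact permutation p = 0.8, adjusted 0.8), far within the SD of 0.724 in WT and 0.683 in CharmeKO.

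The ratio of *Col5a1* to *Col1a1*, collagen V against collagen I, was -2.52, -3.60 and -2.77 in WT and -2.99, -4.55 and -3.30 in CharmeKO. It was lower in CharmeKO in 3 of 3 pairs, by -0.47, -0.95 and -0.53, while the groups overlapped. The difference of -0.65 had an exact permutation p of 0.4, and 0.75 after adjustment, and it was -0.18 without CharmeKO 2. A ratio to *Col1a1* that was lower in CharmeKO in all 3 pairs was common, at 20.0% of all other genes.

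For the minor chains, the ratio of *Col11a1* to *Col5a1* was -4.31, -3.40 and -3.35 in WT and -4.05, -3.65 and -4.83 in CharmeKO, and the groups overlapped. The difference was -0.49 (exact permutation p = 0.4, adjusted 0.75). The ratio of *Col5a3* to *Col5a1* was 0.21 higher in CharmeKO (exact permutation p = 0.5, adjusted 0.75), and it was higher in 3 of 3 pairs, by 0.22, 0.12 and 0.28. *Col5a2* and *Col5a3* thus both stood higher relative to *Col5a1* in CharmeKO in every pair, but both comparisons rest on the same *Col5a1* values. Without CharmeKO 2 the difference for *Col5a3* to *Col5a1* was -0.019. The share of all genes with such a ratio to *Col5a1* was not computed. After the values had been seen, further ratios were taken. The groups overlapped for *Col5a2* to *Col1a1* and for *Col5a1* to *Col3a1*, with differences of -0.38 and -0.61 (exact permutation p = 0.6 and 0.4). The minor chains were also set against *Col1a1*. The ratio of *Col11a1* to *Col1a1* was -6.83, -7.00 and -6.11 in WT and -7.04, -8.20 and -8.13 in CharmeKO, and that of *Col5a3* to *Col1a1* was -9.25, -9.41 and -9.28 in WT and -9.50, -10.24 and -9.54 in CharmeKO. In both, every CharmeKO library lay below every WT library. Of all other genes, 2.59% had a ratio to *Col1a1* with no overlap between the genotypes, in either direction.

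**Figure D4:**
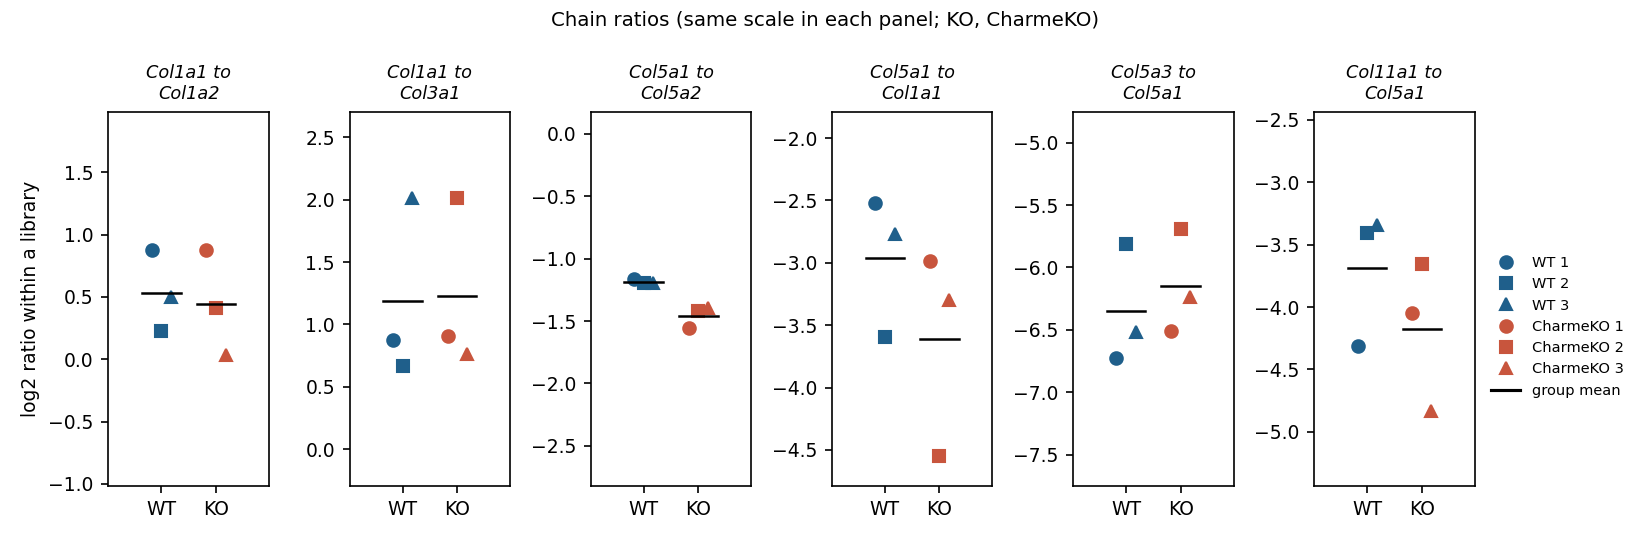
Log2 ratio of the normalised reads of 2 fibrillar collagen genes within each library, for 6 pairs of genes, with the same span in every panel. Blue is WT and red CharmeKO, shapes give the replicate number and bars are group means of 3 libraries. Only in the panel of *Col5a1* to *Col5a2* do the groups not overlap, at -1.16 to -1.19 in WT and -1.39 to -1.56 in CharmeKO.

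The other genes of collagen assembly did not pass the test either. Of 56 genes listed for the remaining fibrillar chains, procollagen folding, propeptide removal, fibril assembly and collagen receptors, 55 were in the table and 54 were tested. Limma called 0 of the 54, beside 0% of all genes, and DESeq2 with the replicate block called 1 of the 54, beside 0.401% of all genes. The median log2 fold change was -0.057 over the 54 genes and 0.0022 over all genes, with 26 values above 0 and 28 below. Its sign depended on the fit, at 0.0212 with edgeR, 0.0135 with DESeq2 and 0.0074 without WT 3, and it was -0.12 without CharmeKO 1. Without WT 1, 20 values were above 0 and 34 below. By list, the medians were 0.0038 for the 19 folding and modification genes, 0.22 for the 7 propeptide genes, -0.12 for the 17 tested assembly and cross-linking genes and -0.39 for the 8 receptors.

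Among the other fibrillar chains, *Col2a1*, the chain of cartilage collagen II, had 0.961 to 8.85 normalised reads and did not pass the filter. *Col11a2*, the second collagen XI chain, had 97.5, 368 and 385 in WT and 132, 666 and 561 in CharmeKO. Its difference was 0.61 log2 units (SE 0.794). *Col27a1* had 115, 504 and 309 in WT and 111, 490 and 111 in CharmeKO, which differed by -0.52 log2 units (SE 0.773). *Col24a1* had 12.8, 23.5 and 47.2 in WT and 16.3, 382 and 69.6 in CharmeKO. The difference of 1.62 log2 units (SE 1.14) came largely from CharmeKO 2, without which it was 0.46. The groups overlapped for all 3.

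The lysyl oxidase *Loxl4*, one of the enzymes that start collagen cross-links, was the 1 gene called by DESeq2 with the replicate block (log2 fold change -0.79, adjusted p = 0.0446). It had 2448, 1502 and 2384 normalised reads in WT, and 1671, 673 and 1520 in CharmeKO, and was lower in 3 of 3 pairs. The groups overlapped, and limma gave an adjusted p of 0.9999 without the block and 0.7997 with it. *Loxl3*, of the same family, had a log2 fold change of -0.57 (SE 0.365).

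The collagen receptors had the lowest list median. *Itga1*, the collagen-binding integrin α1 subunit, had 677, 1582 and 1034 normalised reads in WT and 506, 614 and 618 in CharmeKO. All CharmeKO values were below all WT values, with a log2 fold change of -0.84 (SE 0.326) and a limma adjusted p of 0.9999. *Ddr2*, a receptor kinase for fibrillar collagen, and *Mrc2*, a collagen uptake receptor, also did not overlap, at log2 fold changes of -0.23 and -0.18. *Ddr1*, of the same list, went the other way and was higher in CharmeKO in all 3 pairs (log2 fold change 0.40, SE 0.356). *Itga10* was at 0.061 (SE 0.477). In all, 5 of the 8 receptors were lower in CharmeKO in all 3 pairs, against 14.0% of all genes, and 3 had no overlap, against 4.11% of all genes. The 8 genes share their libraries and are not separate measurements. Their list stands out by a median from these same data, and the counts were not tested. *Itga2*, the α2 subunit, had a larger log2 fold change of -1.90 (SE 1.24), which came largely from WT 3, with 497 normalised reads where the other libraries had 6.96 to 41.3, and it was -0.57 without WT 3. *Tll1*, a tolloid protease that trims procollagen, was at -1.46 (SE 0.776), with 1 low library, CharmeKO 2, at 416 beside 1927 to 4804. *Itga5*, the fibronectin receptor subunit, was at -1.06 (SE 0.675). It had 1 high library, WT 3, at 37582 beside 4095 to 9494, without which it was -0.31.

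**Figure D5:**
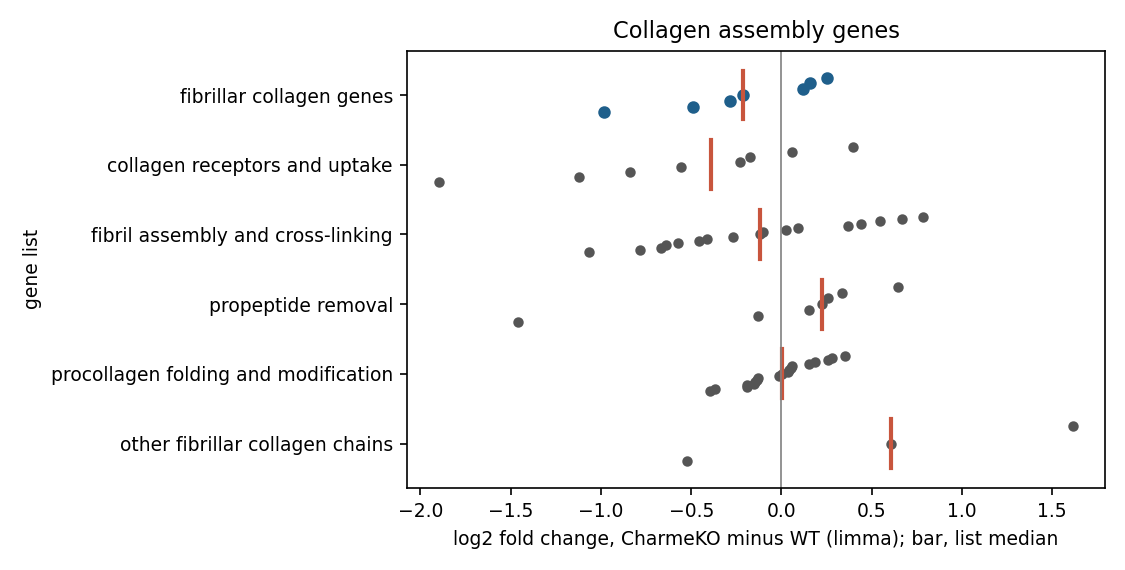
Log2 fold change, CharmeKO minus WT (limma), of the 54 tested collagen assembly genes by list (grey) and of the 7 fibrillar collagen genes (blue), with 1 point per gene. Red bars are list medians, from -0.39 for the receptors to 0.61 for the 3 other fibrillar chains, and the folding genes lie closest to 0.

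Genes with the most similar pattern over the 6 libraries were sought among 11537 genes with a mean of at least 100 normalised reads, by Pearson correlation of log2 values. Closest to *Col1a1* were *Pik3cd* (r = 0.988) and *Letmd1* (0.983), to *Col1a2* *Gm13456* (0.999) and *Vangl2* (0.997), and to *Col3a1* *Irf9* (0.988) and *Bicc1* (0.974). For the collagen V genes they were *Cherp* (0.986) and *Plcl1* (0.985) for *Col5a1*, *Dusp10* (0.959) and *Numb* (0.957) for *Col5a2*, and *Nxph4* (0.975) and *Exd2* (0.970) for *Col5a3*. *Gpat3* (0.985) and *Tbx2* (0.978) were closest to *Col11a1*. With 6 libraries, high values were frequent, and 835 genes reached 0.9 with *Col1a2*, 239 with *Col1a1* and 22 to 101 with the others. Among the 21 pairs of the 7 genes themselves, those that reached 0.9 were *Col1a1* with *Col1a2* and *Col5a1* with *Col5a2*, and the next was *Col5a3* with *Col11a1* (0.681).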

How the data were processed

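Poly(A) RNA of cultured WT and CharmeKO CFs, 3 libraries each, was sequenced with a directional kit. Per the study's methods, reads were aligned with STAR to a mouse assembly (the submitters' notes list GRCm39 and GRCh38), counted per gene on the reverse strand with Ensembl models plus *Charme*, and normalised by DESeq2. The deposited values were these gene signals, counts that the authors had divided by size factors. Each value was a whole multiple of the value of 1 read within 0.001 reads (100% of 116676 values), so read counts were recovered, 38330019 to 46797446 per library.

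The values, not being counts, were tested with limma 3.58.1 (R 4.3.3) with its trend option, on log2(value + 1), two-sided, with Benjamini-Hochberg adjustment over the 15948 genes that had 10 or more reads in 2 or more libraries. The added 1 understates changes of low genes. Alternatives were edgeR 4.0.16 and DESeq2 1.42.0 on the recovered reads, each also with the replicate block, another pseudocount, other filters and scalings, and leaving out each library. The models were tested on simulated data. Fold changes are CharmeKO minus WT, and a ratio is a difference of log2 values within a library.

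Replicate numbers come from the sample titles. Deviations of same-numbered libraries from their group means correlated at 0.762, 0.514 and 0.217 for numbers 1 to 3, so the numbers were taken to pair the libraries. Libraries of different numbers correlated at -0.643 to 0.222, and WT 2 with CharmeKO 3 was as close as pair 3. The study's methods describe independent primary cell isolations for its experiments in general; what a number shares between genotypes is not given in the sources used here.

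Groups came from the labels. The genes and lists were chosen with earlier results of these data known. Named genes were the 7 members, other fibrillar chains, the 6 assembly genes with the lowest limma p, any assembly gene called by any fit, and the 2 genes most correlated with each member. *Ddr1*, *Ddr2*, *Itga10* and *Mrc2* were named after their values were seen. Positions, lengths and sequences are from GENCODE M21 (GRCm38), since the table holds none. A level near the floor of 3 reads is limited by counting error.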

Additional observations from a re-analysis of the deposited data

How the results depend on the processing

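None of the 7 fibrillar collagen genes was called under any of the 17 alternatives run. Over all genes, limma's count of 0 became 8 with DESeq2 and 64 with DESeq2 and the replicate block, and the count of assembly genes became 1 with DESeq2 and the replicate block. The paired fit with the replicate block, limma included (0 of 7), changed no other call; the sign-flip test of the pairs gave the *Col5a1* to *Col5a2* ratio the same difference of -0.27 (exact p = 0.25). *Col3a1* changed sign with edgeR (-0.038) and DESeq2 (-0.043). When each library was left out in turn, the log2 fold changes ranged from -0.11 to 0.41 for *Col1a1*, -0.20 to 0.66 for *Col1a2*, -0.27 to 0.63 for *Col3a1*, -0.71 to -0.15 for *Col5a1*, -0.49 to 0.15 for *Col5a2*, -0.52 to -0.081 for *Col5a3* and -1.35 to -0.69 for *Col11a1*. The ratio differences ranged from -0.31 to 0.11 for *Col1a1* to *Col1a2*, -0.35 to 0.46 for *Col1a1* to *Col3a1*, -0.30 to -0.22 for *Col5a1* to *Col5a2*, -0.97 to -0.18 for *Col5a1* to *Col1a1*, -0.019 to 0.48 for *Col5a3* to *Col5a1* and -0.80 to -0.16 for *Col11a1* to *Col5a1*. The cause of these changes was not tested. The difference in read share ranged from -0.46 to 1.07 percentage points. *Col1a1*, *Col1a2* and *Col3a1* turned negative without WT 1. The 95% intervals of *Col1a1*, *Col1a2* and *Col3a1* spanned more than 2 log2 units, while the least abundant gene, *Col5a3*, had at least 646 reads in every library. The length from all annotated exons was added after the data had been seen and did not change the order by mean level.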
